A study of Mus with 438 samples.

Results

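Mtnr1a, Drd4 and Gpr152 are 3 genes for G-protein coupled receptors, followed here through mouse cone photoreceptors of different ages, retinal zones and genotypes and through rods. They were named for this description because Mtnr1a RNA was seen in newborn cones and the other 2 in older cones, so their course over age is a description and carries no test. They are 3 of the 10390 genes in the table of single-cell RNA values.

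Mtnr1a encodes the MT1 receptor for melatonin, the hormone that the pineal gland and photoreceptors make at night. Drd4 encodes the D4 dopamine receptor, which photoreceptors use to sense dopamine released by amacrine cells in the light. Both couple to inhibitory G proteins that lower cyclic AMP, and dopamine acting through D4 is known to lower cyclic AMP in photoreceptors. Gpr152 encodes an orphan receptor, which means that no ligand is established for it. The C57BL/6 strain used here is known for making very little melatonin. Drd4 RNA is known to follow a daily rhythm in retina, and the time of day at which these cells were taken is not given in the sources used here.

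Each RNA library was 1 cell, picked by hand as a fluorescent cell from papain-treated pieces of the superior (dorsal) or inferior (ventral) retina of C57BL/6 mice. Control cones were Trb2Cre-het:Ai6, in which Cre driven from Thrb, a thyroid hormone receptor gene, switches on the Ai6 fluorescent reporter, at postnatal day 2 (P2), P8, P21, P60 and 2 months. Knockout cones were Trb2Cre-KO:Ai6 at 2 months, and rods were labelled by tgNrl:gfp at 2 months with no zone given, so rods differ from cones in reporter line as well as in cell type. The control cones therefore also carry the Cre driver, are labelled het and are not wild type. The labels name no animal, so the cells of a group count as 1 sample. There were 26 superior and 30 inferior cells at P2, 24 and 24 at P8, 24 and 24 at P21, 26 and 21 at P60, 53 and 50 at 2 months, 50 and 48 in the knockout, and 29 rods. Intervals on shares of cells are exact Clopper-Pearson 95% intervals, cover counting error only and say nothing about animals. Where a count is 0, the limit given is 3 cells of the total, which limits cells with a read and not cells that express the gene. Receptor binding was listed by affinity purification of biotin-tagged TRβ from E18 retina (ThrbHAB:BirA against BirA alone), and chromatin by ATAC-seq of purified P30 cone nuclei (Trb2Cre-het:Sun1-gfp against Trb2Cre-KO:Sun1-gfp).

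Defining genes were checked against the labels. Opn1sw, the short-wavelength cone opsin, and Gnat2, cone transducin, were above 1 CPM (reads scaled to the size of the library) in 400 of 400 cones, and Gnb1, the rod transducin β subunit, was above it in 29 of 29 rods. A limit of 1 CPM alone does not separate the labels, since 11 of 29 rods were above it for Opn1sw (mean 18.4, highest 492 CPM), and Gnb1 averaged 8.80 to 555 CPM in cone groups against 7190.8 CPM in rods. Among superior knockout cones the lowest Opn1sw value was 225 CPM (group median 70182 CPM), and 1 of 50 had Gnat2 between 1 and 10 CPM. Thrb, counted over the whole gene, averaged 213 CPM in superior 2-month controls and 43.2 CPM in superior knockout cones, and 170 and 33.9 CPM in the inferior zone. A pair of libraries of superior P60 cones differed by little more than sampling noise (chi-square per degree of freedom 1.87, against 1435 for the next closest pair) and were counted as 1 cell, which leaves 429 cells. Depth ran from 897893 to 3.26e+07 reads per cell, with group medians of 1.74e+06 to 3.25e+06 from P2 to P60 and 1.09e+07 to 1.83e+07 in the 2-month, knockout and rod cells. A cell is called positive here above 1 CPM, which is about 1 read in the shallowest cell and more than 10 reads in most 2-month, knockout and rod cells; shares at 1 common depth are given as well.

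Mtnr1a (gene ID 17773) spans chr8:45069107-45089233 in GRCm38. Its RNA was found in P2 cones and was not detected in any P21, P60 or 2-month control cone. In P2 cones the mean was 63.6 CPM (SD over cells 123, n = 26) in the superior and 101.7 CPM (SD 167, n = 30) in the inferior zone. The median P2 cell had 0 CPM in the superior and 0.118 CPM in the inferior zone, and the highest had 445 and 500 CPM. Positive cells were therefore a minority with a high level: 20 of 56 P2 cones were above 1 CPM (35.7%, interval 23.4% to 49.6%), all 20 were also above 10 CPM, and 15 were above 100 CPM. Between these 20 cells and the rest lay a gap, since the other 36 cones had 0 (30 cells) or less than 1 CPM (6 cells).

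At P8 the gene was found in the superior zone, where 4 of 24 cones had 165, 153, 20.3 and 8.45 CPM and the other 20 had 0. Of the 24 inferior P8 cones none was above 1 CPM, and the highest had 0.636 CPM. Of those 4 superior cones 1 also had Drd4 above 1 CPM and 2 had Gpr152 above 1 CPM, so receptors of both ages could be read in the same P8 cell.

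From P21 on, all 198 control cones were at 0 CPM of Mtnr1a, which allows a share of up to 1.52% of cells with a read. The P2 mean was at least 37.6-fold higher than that of P60 cones in the superior zone and at least 61.7-fold higher in the inferior zone. Against the more deeply sequenced 2-month cones the bounds were at least 264-fold and 445-fold higher. These bounds set the undetected level at 3 reads in each library, averaged over the group, and therefore differ with depth. All 29 rods were at 0 CPM as well.

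Drd4 (gene ID 13491) spans chr7:141291974-141296464. It had the reverse course: none of the 56 P2 cones had a read, which allows a share of up to 5.36% of cells with a read. At P8 the mean was 29.7 CPM (SD 64.5, n = 24) in superior and 153 CPM (SD 322, n = 24) in inferior cones, with 16 of 48 cones above 1 CPM (33.3%). The highest means among the cone groups were at P21, with 250 CPM (SD 301) in the superior and 235 CPM (SD 327) in the inferior zone and 34 of 48 cones positive (70.8%).

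Adult cones had less Drd4 RNA than P21 cones in these collections. P60 cones averaged 121 CPM (SD 165) in the superior and 137 CPM (SD 191) in the inferior zone, and 27 of 47 were positive (57.4%). Cones of 2 months averaged 70.0 CPM (SD 110) and 78.6 CPM (SD 111), and 48 of 103 were positive (46.6%). P60 and 2 months are nearly the same age, yet P60 was 1.73-fold higher in the superior and 1.74-fold higher in the inferior zone, so separate collections of adult control cones differed by about that much. The adult means were at least 132-fold (P60) and 76.2-fold (2 months) higher than P2 in the superior zone, and at least 129-fold and 73.9-fold higher in the inferior zone.

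In single cones from P21 on, Drd4 values were mostly either below 1 CPM or above 10 CPM. A low value in 1 library does not show that the cell lacked the RNA. Of the 198 control cones, 47 were at 0, 42 lay between 0 and 1 CPM, 6 between 1 and 10 CPM, 25 between 10 and 100 CPM and 78 above 100 CPM. The median superior cone had 162 CPM at P21, 36.4 CPM at P60 and 0.392 CPM at 2 months, while the highest cone had 882, 709 and 498 CPM.

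Gpr152 (gene ID 269053) spans chr19:4139799-4145741. It, too, had no read in any of the 56 P2 cones (up to 5.36% by the same limit). At P8 it averaged 89.0 CPM (SD 127) in superior and 154 CPM (SD 291) in inferior cones, and 19 of 48 cones were above 1 CPM (39.6%). P21 cones averaged 230 CPM (SD 265) in the superior and 334 CPM (SD 442) in the inferior zone, with 31 of 48 positive (64.6%).

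Unlike Drd4, Gpr152 at P60 was close to its P21 level, with 247 CPM (SD 301) in the superior and 261 CPM (SD 322) in the inferior zone and 30 of 47 positive (63.8%). Cones of 2 months averaged 151 CPM (SD 232) and 219 CPM (SD 359), and 57 of 103 were positive (55.3%, interval 45.2% to 65.1%). The adult means were at least 269-fold (P60) and 164-fold (2 months) higher than P2 in the superior zone, and at least 246-fold and 206-fold higher in the inferior zone. The highest single cone from P21 on had 1505 CPM, in the inferior zone at 2 months.

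**Figure D1:**
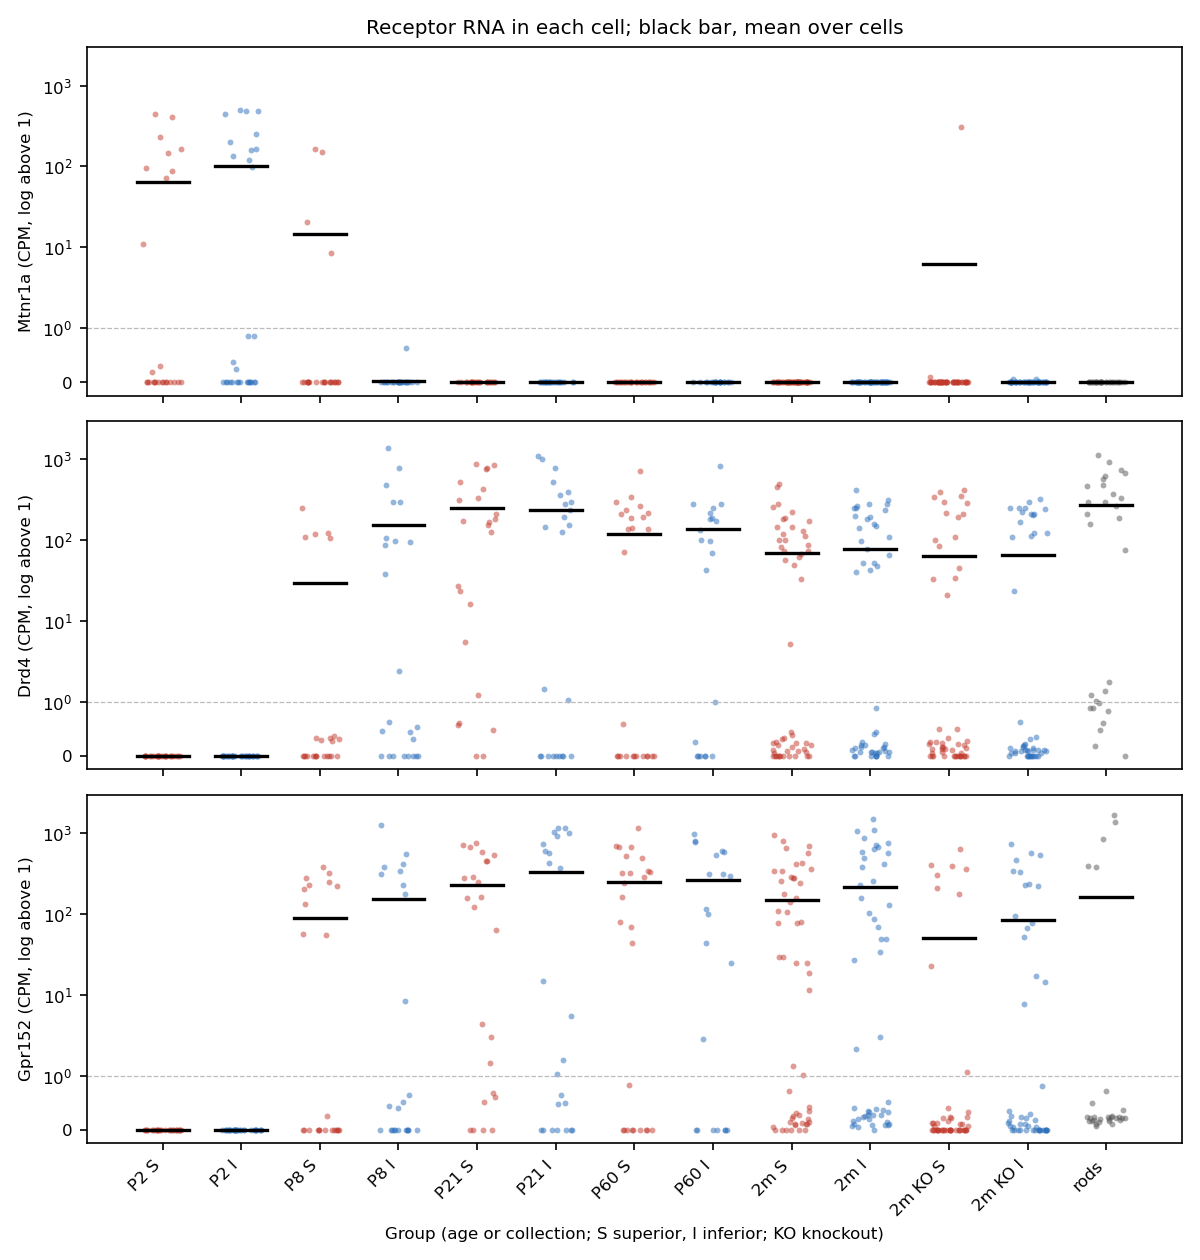
Each point is 1 cell and each black bar the mean of its group; the vertical axis is CPM, linear up to 1 and logarithmic above it, for Mtnr1a, Drd4 and Gpr152 in the 13 groups (S superior, I inferior, KO knockout). Mtnr1a points above 1 CPM lie in the P2 groups, in 4 superior P8 cones and in 1 knockout cone, whereas Drd4 and Gpr152 have points above 1 CPM from P8 on and none at P2.

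A 4-fold size rule placed this course among all genes. A gene passed when its mean CPM plus 1 differed at least 4-fold between P2 and both adult control collections, in both zones and in 1 direction, where the higher group of each pair also had to average 10 CPM or more and to have 25% or more of its cells above 1 CPM. Of 10390 genes, 158 (1.52%) were higher and 132 (1.27%) lower at P2. Mtnr1a was among the first and Drd4 and Gpr152 among the second, which restates how they were chosen. By the same rule 109 genes (1.05%) were higher and 94 (0.905%) lower at P8 than at P2: Mtnr1a was lower (4.41-fold in the superior zone, at least 71.0-fold in the inferior) and Gpr152 higher (at least 96.9-fold and 145-fold). Mtnr1a was outside this rule with a pseudocount of 5 CPM or with logs averaged over cells, where its smaller zone value was -1.82 and -1.51 on the log2 scale. Drd4 at P8 was at least 32.3-fold and 144-fold higher than at P2 but was outside the rule, since 20.8% of superior P8 cones were above 1 CPM.

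In order of level, the groups ran for Mtnr1a from inferior P2 (101.7 CPM) through superior P2, superior P8 (14.4 CPM) and superior knockout (6.15 CPM) to inferior P8 (0.0265 CPM) and inferior knockout (0.00212 CPM), with the other 7 groups at 0. For Drd4 the order was rods (271 CPM), superior and inferior P21, inferior P8, inferior and superior P60, inferior and superior 2 months, inferior and superior knockout, superior P8 (29.7 CPM) and P2 at 0. Gpr152 ran from inferior P21 (334 CPM) through inferior and superior P60, superior P21, inferior 2 months, rods, inferior P8, superior 2 months, superior P8 (89.0 CPM), inferior and superior knockout (50.2 CPM) to P2 at 0. The SD over cells was larger than the mean in every group above 0 (6 for Mtnr1a, 11 for Drd4 and 11 for Gpr152), so this spread cannot separate any neighbours, and the order is a description.

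Depth differed between collections, so the share of positive cells was also counted after each cell was thinned to 850000 reads, a cell then counting as positive with 1 read. At that depth Mtnr1a was found in 41.1% of P2 cones. Drd4 was found in 37.5% of cones at P8, 70.8% at P21, 57.4% at P60 and 54.4% at 2 months. The thinned shares for Gpr152 were 43.8%, 70.8%, 65.96% and 62.1% at the same ages. Thinning cannot add reads, so P2 had to stay at 0 for both genes, and Mtnr1a at 0 in control cones from P21 on.

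**Figure D2:**
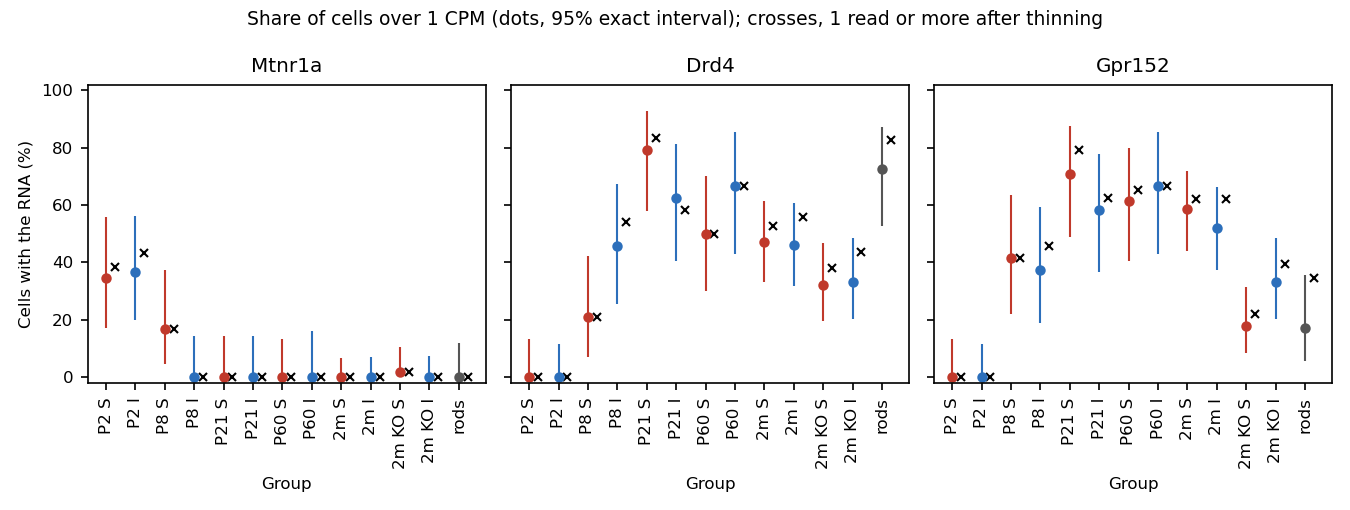
Share of cells above 1 CPM in each group (dots, with exact 95% binomial intervals that cover counting error only) and share with 1 read or more after thinning to 850000 reads (crosses), in percent. For Mtnr1a the share is at 35% to 37% in the 2 P2 groups and 0% in every control group from P21 on; for Drd4 and Gpr152 it is 0% at P2.

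Other cell types were read through marker lists. The 6 of 8 Müller glia markers in the table (Glul, Rlbp1, Slc1a3, Apoe, Vim, Dkk3) summed to 1174 CPM in superior and 1022 CPM in inferior P2 cones, against 68.1 to 378 CPM in the other cone groups and 2395 CPM in rods; Glul, the defining enzyme, was at 22.4 and 31.6 CPM at P2. Cabp5, a bipolar cell marker, averaged 311 and 462 CPM at P2 and 31.9 to 375 CPM in the other cone groups. The glial sum was thus higher at P2, as Mtnr1a was, while superior P2 Cabp5 lay within the range of the other cone groups. The part of other cell types in the result was not tested. Rod markers also moved with the first appearance of Drd4 and Gpr152. The 10 rod markers reported here (Nr2e3, Gnat1, Gnb1, Gngt1, Pde6a, Pde6b, Pde6g, Cnga1, Cngb1, Sag), of which cones also express some such as Sag, summed to 1716 CPM in superior and 1555 CPM in inferior P2 cones. At P8 the sums were 11805 and 12104 CPM, from P21 on 12375 to 22644 CPM in cones, and in rods 95956 CPM. By the 4-fold rule 8 of the 10 were higher at P8 than at P2, with a median log2 difference of 4.47 against -0.19 over all genes, and none was lower. Gnat1, rod transducin, averaged 0.0168 and 0 CPM at P2 and 367 and 503 CPM at P8. The part of rod RNA in the levels of the 2 receptors was not tested.

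The number of cones with both Drd4 and Gpr152 is given beside the product of the 2 shares. At 2 months 17 of 53 superior cones were above 1 CPM for both genes, where the product gives 14.6, and 13 of 50 inferior cones, where it gives 11.96. At P21 the superior count was 13 of 24 (product 13.5), and at P60 it was 8 of 26 (product 8). Inferior knockout cones (8 of 48, product 5.33) and inferior P8 cones (6 of 24, product 4.13) were above the product, and superior P8 cones (1 of 24, product 2.08) below it. Across cells of 1 group the Pearson correlation of the log2 values ran from -0.21 to 0.36 over the 11 groups that had both RNAs. This is a description across cells with many values at or near 0.

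The zones were compared next, since superior cones are rich in medium-wavelength opsin and inferior cones in short-wavelength opsin, and the genes were not chosen by zone. Each zone of each collection gave 1 value, log2 of mean CPM plus 1, and limma was fitted over the 10 control groups with the collection as a block, across the 10136 genes that averaged 5 CPM or more over those groups. With Benjamini-Hochberg adjustment 0 genes (0.0%) passed 0.05, 710 had an unadjusted p under 0.05, and edgeR on reads recovered from the CPM also called 0, with 416 at an unadjusted p under 0.05. DESeq2 on the same reads called 236 genes, none of them among these 3 receptors. Opn1sw was not called by limma, although it averaged 8870 CPM in superior and 72134 CPM in inferior P60 cones. At P2 it averaged 4075 and 5261 CPM. A gene that limma did not call may therefore still differ between zones.

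Gpr152 was lower in superior than in inferior cones in 4 of the 5 collections and at 0 in both zones at P2. The log2 difference was -0.78 at P8, -0.54 at P21, -0.08 at P60 and -0.54 at 2 months, with a mean of -0.39 (SE 0.23, limma adjusted p = 0.769). An exact sign-flip permutation test over the collections, two-sided, gave p = 0.125, the smallest that 4 unequal pairs allow. Over 13 alternative settings the adjusted p ran from 0.125 to 1.0, and averaging log values over cells turned the mean to 0.16. In knockout cones the superior mean was also below the inferior (-0.72).

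Drd4 differed most between zones at P8, where the superior mean was lower by 2.32 on the log2 scale. At P21, P60 and 2 months its zone differences were 0.09, -0.17 and -0.16, and in knockout cones -0.04. The mean over collections was -0.51 (SE 0.40, limma adjusted p = 0.824, 0.256 to 1.0 over the alternatives), and without P8 it was -0.06. The exact sign-flip permutation p was 0.25, with 0.125 the smallest possible. Without the highest cell of each group the P8 means were 20.01 CPM in superior and 99.7 CPM in inferior cones, so the P8 difference did not rest on 1 cell.

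Mtnr1a could be compared in 2 collections, since the other 3 were at 0 in both zones, so its mean over the 5 and the fitted p say little. Its superior mean was lower at P2 (-0.67) and higher at P8 (3.91), for a mean of 0.65 over the 5 collections (SE 0.79, limma adjusted p = 0.892, 0.843 to 1.0 over the alternatives). Without P8 the mean was -0.17. The exact sign-flip permutation p was 1, and 0.5 was the smallest possible with 2 unequal pairs. At P8 the superior mean without its highest cell was 7.89 CPM, against 0 in inferior cones.

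**Figure D3:**
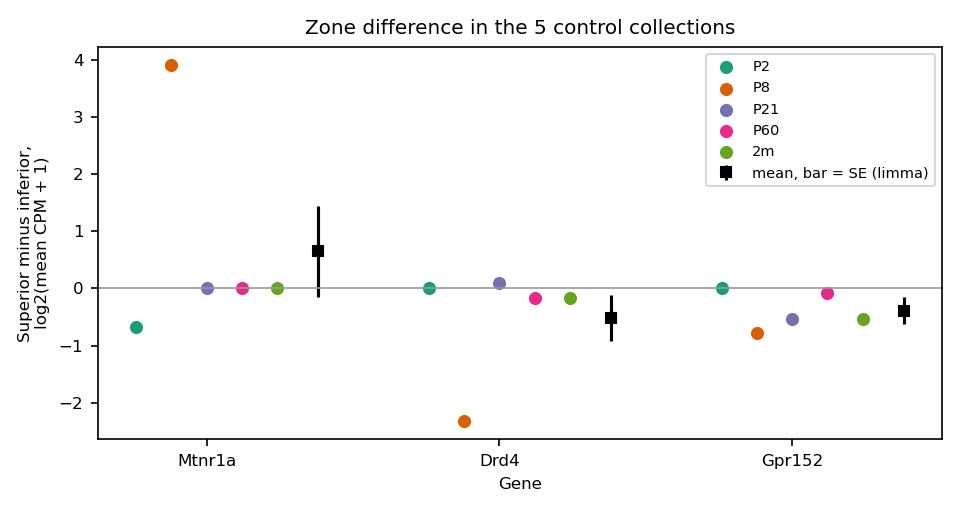
Superior minus inferior difference in log2(mean CPM + 1) for each gene in the 5 control collections (coloured points) and their mean with its limma SE (black square and bar). The P8 points stand apart for Mtnr1a (3.91) and Drd4 (-2.32), and Gpr152 lies at or below 0 in all 5 collections.

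The Trb2Cre-KO:Ai6 knockout was examined at 2 months, with 1 collection of knockout cones and therefore no test. Its controls were Trb2Cre-het:Ai6, so the comparison is with het and not with wild-type cones. Gpr152 was lower in knockout cones in both zones. In the knockout its mean was 50.2 CPM (SD over cells 135, n = 50) for superior and 83.6 CPM (SD 176, n = 48) for inferior cones, against 151 and 219 CPM in 2-month controls, which is 3.001-fold and 2.62-fold lower. Against P60 controls it was 4.91-fold and 3.13-fold lower. P60 and 2-month controls themselves differed 1.64-fold in the superior and 1.19-fold in the inferior zone, less than either knockout difference in the same zone, and no receptor of the 3 passed the 2-fold rule between them, which 263 genes (2.53%) passed as higher and 266 (2.56%) as lower at P60.

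Gpr152 RNA was read above 1 CPM in fewer knockout cones, and the cones above it were not uniformly low. Cells above 1 CPM were 25 of 98 in the knockout (25.5%, interval 17.2% to 35.3%) and 57 of 103 in 2-month controls (55.3%), and after thinning 30.6% and 62.1%. Among positive cells the median for the superior zone was 306 CPM in the knockout and 175 CPM in 2-month controls, and for the inferior zone 225 and 320 CPM. Fewer positive cells were not particular to Gpr152, since Drd4 was above 1 CPM in 32.7% of knockout cones against 46.6%. The median knockout cone had 5072 (superior) and 5259.5 (inferior) genes above 0, against 5824 and 5782.5 in 2-month controls. By a 2-fold rule of the same form 104 of 10390 genes (1.0%) were lower in knockout cones than in 2-month controls, 197 (1.9%) lower than in P60 controls, and 41 (0.395%) lower than in both; 18 genes (0.173%) were higher than in both. Gpr152 was among the 41, and it passed the rule in all 7 settings tried.

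Markers of other cells moved in the same comparison. Of the 10 rod markers, Gnat1 and Pde6b were lower in the knockout than in 2-month controls by the 2-fold rule and none was higher (median log2 difference -0.85, against 0.07 over all genes), although the 10 summed to 16590 and 22644 CPM in 2-month controls and 18553 and 22599 CPM in the knockout. Gnat1 averaged 169 and 375 CPM in 2-month controls and 69.8 and 54.4 CPM in the knockout. Against P60 controls Pde6a alone of the 10 was lower, none was higher, and the median log2 difference was -0.08. No rod marker passed the rule against both adult collections. Rlbp1, a Müller glia gene, was lower (91.7 and 174 CPM against 23.7 and 16.5 CPM), and Apoe, another, was higher (46.5 and 79.8 CPM against 102.5 and 219 CPM). By that rule Rlbp1 was also lower in P60 than in 2-month controls, and Apoe was higher in the knockout than in both adult collections. Gpr152 was also above 1 CPM in 5 of 29 rods. The part of rod and Müller glia RNA in the knockout difference was not tested.

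Drd4 was nearly as high in knockout cones as in 2-month controls: 63.4 CPM (SD 121) in the superior and 65.2 CPM (SD 103) in the inferior zone, 1.10-fold and 1.20-fold lower. Against P60 it was 1.91-fold and 2.09-fold lower, close to the 1.73-fold and 1.74-fold by which the 2 adult control collections differed. Positive cells were 32 of 98 (32.7%) against 48 of 103 (46.6%), and after thinning 40.8% against 54.4%. It did not pass the 2-fold rule against either collection, except against P60 with logs averaged over cells (-2.08 and -1.50 on the log2 scale). Whether the knockout differs for Drd4 and Gpr152 unequally has no test, because each genotype and zone is 1 sample.

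Mtnr1a was at 0 in 94 of 98 knockout cones. Of the other 4, 1 was above 1 CPM, a superior cone at 307 CPM, a level within the range of positive P2 cones, and 3 had less than 0.1 CPM. That cell gave 99.97% of the superior knockout sum behind the mean of 6.15 CPM.

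**Figure D4:**
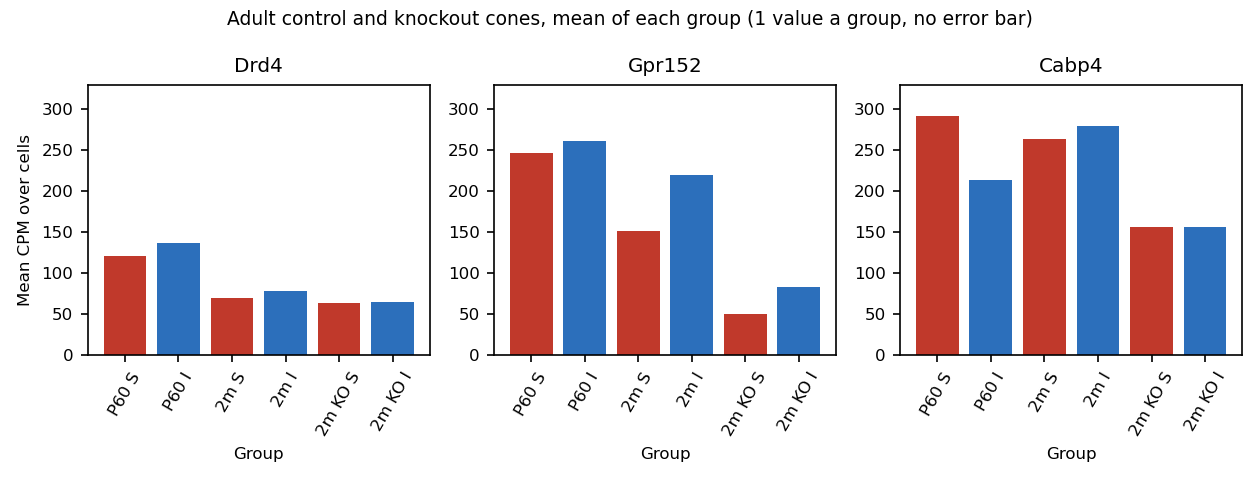
Mean CPM over cells of Drd4, Gpr152 and Cabp4, which overlaps Gpr152, in adult control (P60, 2 months) and 2-month knockout (KO) cones of the superior (S) and inferior (I) zones; each bar is 1 group of cells and has no error bar. Gpr152 bars of the knockout (50.2 and 83.6 CPM) are below all 4 control bars, and those of Drd4 (63.4 and 65.2 CPM) are close to the 2-month controls (70.0 and 78.6 CPM).

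Most rods had Drd4 RNA above 1 CPM and few had Gpr152 RNA above it. Drd4 averaged 271 CPM (SD 318, n = 29) in rods, with a median of 190 CPM and a highest cell of 1139 CPM, and 21 of 29 rods were above 1 CPM (72.4%; 82.8% after thinning). That mean was 3.87-fold higher than in superior and 3.45-fold higher than in inferior 2-month cones, just under the 4-fold rule, by which 62 genes (0.597%) were higher and 889 (8.56%) lower in rods. With logs averaged over cells the mean log2 difference was 2.04, inside the rule.

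Gpr152 in rods had a mean of 162 CPM (SD 423) that rested on few cells. Of 29 rods, 5 were above 1 CPM (17.2%) and the highest had 1677 CPM, while the other 24 lay between 0 and 1 CPM with a lowest value of 0.0654 CPM. The rod mean was 1.08-fold the superior and 0.740-fold the inferior 2-month cone mean. With logs averaged over cells the difference from cones was -2.20 on the log2 scale, inside the rule as lower, so the mean and the typical cell differ here. Müller glia markers were also high in rods (Glul 416 CPM, Rlbp1 867 CPM), and their part in the rod levels was not tested.

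The reads of Gpr152 need care because of its neighbour. RefSeq places Cabp4, a calcium-binding protein of the photoreceptor synapse, at chr19:4135423-4144080, so 4282 of the 5943 bases of the Gpr152 interval are shared. The library kit does not mark strand, so reads from the shared stretch cannot be told apart if both genes have exons there. Cabp4 averaged 12.4 (superior) and 6.71 CPM (inferior) in P2 cones. It reached 130 and 156 CPM in P8 cones, 264 and 279 CPM in 2-month cones and 441 CPM in rods. In knockout cones it averaged 156 CPM in both zones, 1.69-fold and 1.79-fold lower than 2-month controls, outside the 2-fold rule. Cabp4 was thus detected at P2, in 4 of 26 superior and 3 of 30 inferior cones, where Gpr152 was not, and 7 of the 24 superior P21 cones had Cabp4 but not Gpr152 above 1 CPM. In the other direction, cells with Gpr152 above 1 CPM nearly always had Cabp4 above it. This held for 10 of 10 superior and 9 of 9 inferior cells at P8, and for 17 of 17 and 13 of 14 at P21. It held for 16 of 16 and 14 of 14 at P60, and for 30 of 31 and 23 of 26 at 2 months. In the knockout it held for 6 of 9 and 13 of 16, and in rods for 5 of 5, where the product of the shares gives 2.93. From P21 on most control cones had Cabp4, so the product is close to the count there (17 against 17 for superior P21 cones). Neither Mtnr1a nor Drd4 overlaps another RefSeq gene; the nearest neighbours are AY512931, a lncRNA 3689 bases from Mtnr1a, and Deaf1, 712 bases from Drd4.

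The deposited region lists bear on the loci from another assay. The 3 genes differed in which lists had regions near them (coordinates in GRCm38/mm10, counted from 1). The sources used here do not state how the authors decided that a region was induced or suppressed, and the names of the lists are kept.

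Mtnr1a had suppressed ATAC regions and no induced one nearby. Inside the gene lay chr8:45069792-45070069 and chr8:45082977-45083437, both on the suppressed list. Another 3 suppressed regions within 50 kb were chr8:45092828-45093035, chr8:45111837-45113221 and chr8:45129037-45130012. A receptor-bound region, chr8:45112511-45112810, 23.3 kb from the gene, lay with all of its 300 bases inside the suppressed region chr8:45111837-45113221; its value in the authors' p column was 0.000881, rank 2093 of 4590. The nearest induced region was 1055 kb away. Of 10143 genes of the table placed on chromosomes, 6.24% overlapped a suppressed region and 2.08% at least 2 of them. Within 50 kb, 13.2% had a suppressed and 39.04% a receptor-bound region.

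Drd4 had a receptor-bound region in the gene and no ATAC region of either list within 50 kb. That region was chr7:141293036-141293335, with 5.03e-05 in the authors' p column, rank 1350 of 4590. The nearest induced and suppressed regions were 123 kb and 172 kb away. Receptor-bound regions overlapped 14.7% of all placed genes, so having one is not rare. Within 50 kb, 35.5% of placed genes had an induced and 13.2% a suppressed region, so having neither is common.

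Gpr152 had receptor-bound and induced regions together at its lower-coordinate end. The receptor-bound region chr19:4139514-4139813 (authors' p column 0.00337, rank 2701) reached 15 bases into the gene interval and lay wholly in the induced region chr19:4139025-4140502. A further induced region, chr19:4140557-4140785, was inside the gene and another, chr19:4138573-4138881, was 918 bases away. Another receptor-bound region, chr19:4101457-4101756, 38.04 kb away and rank 3784, overlapped none of these induced regions. The nearest suppressed region was 3987 kb distant. All 3 induced regions and the receptor-bound region chr19:4139514-4139813 also lie within Cabp4, so the position alone does not assign them to either gene. Overlap with both a receptor-bound and an induced region was found for 6.23% of placed genes.

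**Figure D5:**
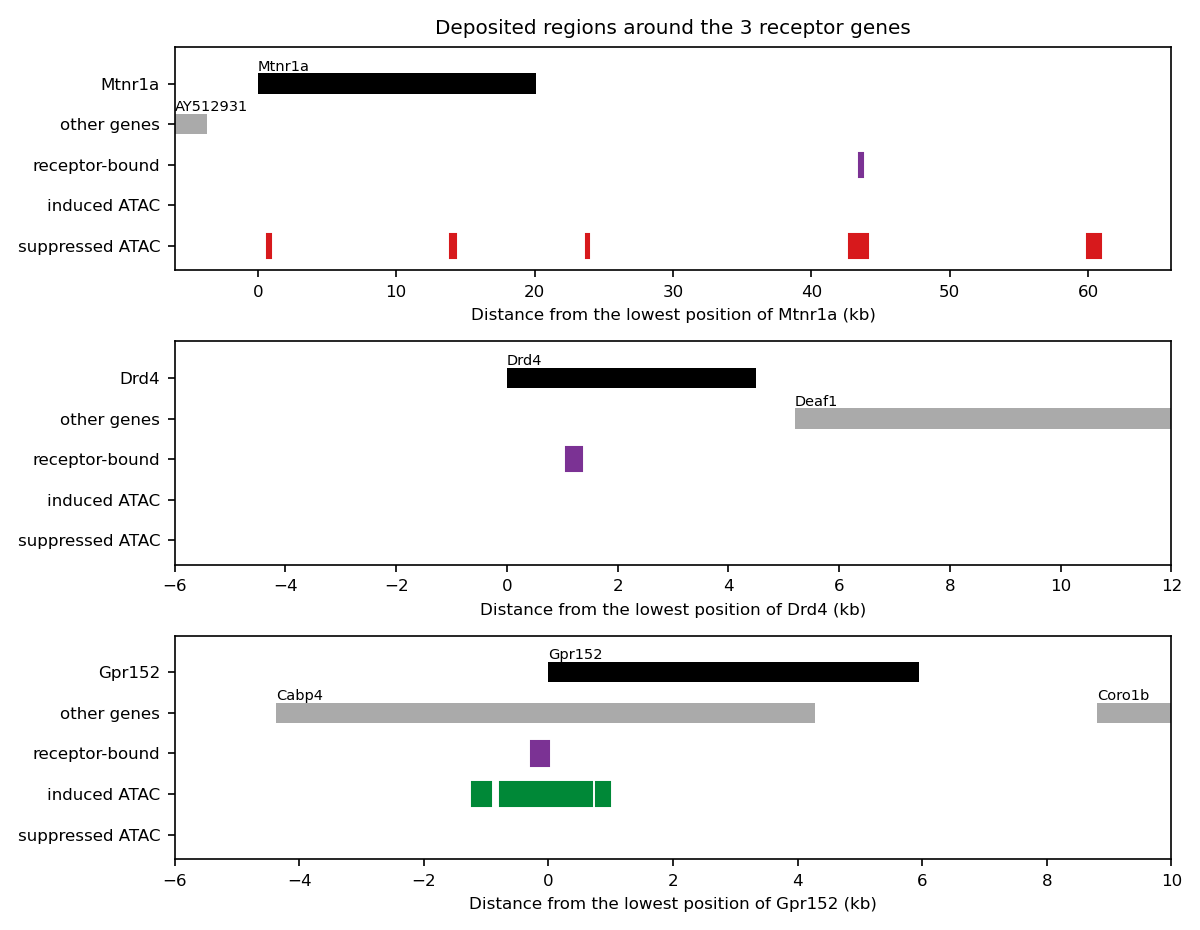
The 3 gene intervals (black), other RefSeq genes (grey) and deposited regions (receptor-bound from E18 retina, induced and suppressed ATAC from P30 cones), drawn by distance in kb from the lowest position of each gene. Suppressed regions are near Mtnr1a, a receptor-bound region without ATAC regions is in Drd4, and a receptor-bound region with induced regions is at Gpr152.

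Genes whose pattern over the 13 groups was most like each receptor were ranked by Pearson correlation of log2(mean CPM + 1) among 10356 genes, as a description over groups that share collections and depth. Mtnr1a was most like Nln (0.99), Mab21l2 (0.97), L1cam (0.96) and Tmsb4x (0.94). Nln, a peptidase gene, averaged 22.1 and 50.3 CPM at P2 and at most 0.581 CPM in control cones from P21 on. Mab21l2, a gene known for eye development, averaged 64.5 and 211 CPM at P2 and 0 to 2.78 CPM from P21 on in controls. L1cam, a cell adhesion gene, had 37.2 and 15.5 CPM at P2, and Tmsb4x, an actin-binding peptide gene, had 1264 and 812 CPM.

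Genes close to Drd4 were Rdh12 (0.98), a retinol dehydrogenase gene of photoreceptors, Gpr152 (0.97) and Zfp593 (0.97). Rdh12 averaged 13.6 and 12.4 CPM at P2 and 464 and 504 CPM at P21. Gpr152 was most like Rtbdn (0.98), the retbindin gene of photoreceptors, Cabp4 (0.97) and Drd4 (0.97). Rtbdn averaged 1743 and 1668 CPM in 2-month controls and 903 and 914 CPM in knockout cones. Mtnr1a had correlations of -0.93 with Drd4 and -0.92 with Gpr152. These receptors were chosen by age, Mtnr1a for newborn cones and Drd4 and Gpr152 for older cones. The negative values, and the 0.97 between Drd4 and Gpr152, therefore largely restate that choice and are no separate finding.

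Other receptors of the same class were counted by the same rules. Of 36 other G-protein coupled receptor genes in the table, 1 was higher at P2 by the 4-fold rule (2.78%, against 1.52% of all genes) and none lower (1.27% of all genes). That gene was Gabbr1, a subunit of the GABA-B receptor, with 50.4 and 46.8 CPM at P2 and 0.9 to 10.8 CPM in adult controls; it no longer passed with a pseudocount of 5 CPM or with logs averaged over cells. In knockout cones 1 of the 36 was lower than in both adult collections (2.78%, against 0.395% of all genes). With counts of 1 these shares say nothing of the class. That gene, Fzd10, a Wnt receptor, averaged 0.1 and 1.7 CPM in the knockout and 62.1 and 17.9 CPM in 2-month controls. Rods had lower Adrb1 and Fzd10 than 2-month cones, beside 8.56% of all genes. The median log2 difference over all 39 receptor genes, these 3 included, was 0.22 for P2 against adult and 0.26 for knockout against 2-month controls, beside 0.44 and 0.07 over all genes.

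Of the ligand side, 1 of 5 melatonin synthesis genes was in the table. Tph1, tryptophan hydroxylase, averaged 36.1 and 13.1 CPM at P8, 9.9 and 0 CPM at 2 months and 55.7 and 6.9 CPM in the knockout, and passed no size rule. Mtnr1a and Drd4 were the 2 of 7 listed melatonin and dopamine receptor genes in the table, and none of 4 adenosine receptor genes was in it.

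Downstream of such receptors, 46 genes of G protein and cyclic AMP signalling were in the table. At P2, 2 were higher (4.35%) and 2 lower (4.35%) than in adult controls, beside 1.52% and 1.27% of all genes. Gnai2, an inhibitory G protein α subunit, averaged 382 and 283 CPM at P2 and 3.2 to 27.6 CPM in adult controls, and Gpsm2, a regulator of such subunits, was also higher. Adcy1, a calcium-stimulated adenylyl cyclase, averaged 0 and 1.8 CPM at P2 and 61.6 to 111 CPM in adult controls. Rgs20, which speeds the shut-off of inhibitory G proteins, averaged 0 and 5.3 CPM at P2 and 26.1 to 82.8 CPM in adult controls. None of the 46 passed the 2-fold rule in knockout cones against 2-month controls, beside 1.05% (higher) and 1.0% (lower) of all genes. Against P60 controls Pde8a was higher and Gpsm3 lower (2.17% each), beside 1.87% and 1.9% of all genes. Rods had 2 higher (Gnb1 and Gpsm2) and 5 lower (Adcy2, Gnb2, Pde8b, Pkia and Prkacb), beside 0.597% and 8.56% of all genes. The median log2 difference of the 46 was 1.04 for P2, 0.26 for the knockout and -0.36 for rods, against 0.44, 0.07 and -0.98 over all genes.

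Clock genes were counted because melatonin and dopamine signal night and day to the retina. Of 14 measured, 1 was lower at P2 (7.14%, against 1.27% of all genes) and none higher. That gene, Nr1d1, which encodes the repressor REV-ERBα, averaged 16.7 and 53.3 CPM at P2 and 222 to 432 CPM in adult controls. None passed in the knockout against 2-month controls, beside 1.05% (higher) and 1.0% (lower) of all genes. Against P60 Per3 alone was lower (7.14%, beside 1.9% of all genes) and none was higher (1.87% of all genes). In rods Rorb was higher and Nr1d1 and Nr1d2 were lower, beside 0.597% and 8.56% of all genes. The median of the 14 was -0.73 for P2, 0.16 for the knockout and -1.79 for rods, where all genes had 0.44, 0.07 and -0.98.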

How the data were processed

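Single-cell RNA values, 1 receptor-bound region list and a pair of ATAC region lists were used. The members and the gene lists were chosen with earlier results of these data known. The authors deposited the RNA values as CPM, and the submitters' processing notes name bcl2fastq 2, STAR 2.7.3a, MACS2 2.2.7.1 and GRCm38/mm10. How reads were counted and which gene filter was used is not given in the sources used here. CPM summed to 80.0% to 93.0% of the scaled total in each library, so genes were dropped after scaling. Values above 0 were whole reads in 100% of cases (tolerance 0.1 reads). The region list's p-value column was deposited by the authors with no statement of its kind and only ranked regions.

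Means were taken over the cells of a group, with a pseudocount of 1 CPM on the log2 scale, which understates changes of low genes. The zone test used limma 3.58.1 (R 4.3.3), with edgeR 4.0.16 and DESeq2 1.42.0 on the recovered reads as alternatives, after a run on simulated data. Cells were thinned with a fixed seed (11). Cells of a zone may come from 1 animal or several, so p-values measure the spread between collections. The superior and inferior groups of a collection were paired by their shared age, per the labels. Genes named were the 3 receptors, those of the 4 genes most like each that can be reported, list members that passed a size rule, Cabp4 and the next neighbours by position, and Opn1sw and Thrb as label checks; Gnat2, Gnb1, Glul, Rlbp1, Tph1 and Cabp5 were named as list members whatever their value. The 2 like libraries were counted once, a choice made after their values were seen. RefSeq intervals (GRCm38.p6) matched 10149 genes by gene ID, 241 were not matched and 10143 were placed. Some genes that met these rules are not reported here. Sequences, strand and exons were not analysed here.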

Additional observations from a re-analysis of the deposited data

Results flagged for a closer look

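The zone difference of Mtnr1a at P8, 3.91 on the log2 scale (superior minus inferior), lay far from those of the other 4 control collections, which ran from -0.67 to 0. For Drd4 the P8 difference of -2.32 lay far from the other 4, which ran from -0.17 to 0.09. Both were marked by the gap between the most distant collection and its nearest neighbour relative to the whole range, a rule that chance meets in about 1 of 20 groups of 5. Both extreme values were from the same collection, in opposite directions, and Mtnr1a was at 0 in both zones in 3 of the other 4 collections, as Drd4 was in 1.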

How the results depend on the processing

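Of 160 recomputed values, 134 kept their direction and stayed on the same side of their threshold or within the spread allowed. The zone comparison called 0 genes with limma but 16 with logs averaged over cells, 2 with no collection block and 236 with DESeq2. Leaving out each collection in turn gave 0 genes each time, and mean zone differences of -0.17 to 0.98 for Mtnr1a (-0.17 without P8), -0.67 to -0.06 for Drd4 and -0.48 to -0.29 for Gpr152. Without the collection block as pairing the differences stayed 0.65, -0.51 and -0.39, with adjusted p = 1.0 for each (limma). With logs averaged over cells Gpr152 turned to 0.16. For P2 against adult controls the mean log2 ratios of Mtnr1a, Drd4 and Gpr152 were 4.10, -4.36 and -5.46 with a pseudocount of 5 CPM and 2.704, -3.80 and -4.60 with averaged logs. The knockout ratio of Gpr152 was -2.21 with averaged logs and -1.62 without the highest cell of each group, and that of Drd4 was -0.85 with averaged logs. In rods the averaged logs gave 2.04 for Drd4 and -2.20 for Gpr152; Gpr152 was -0.58 without the highest cells. Counts past the size rule moved as follows. In the signalling list they were 2 at P2 with a pseudocount of 5 CPM, and 1 (knockout) and 11 (rods) with averaged logs. In the clock list they were 0 at P2 with a pseudocount of 5 CPM, and 2 (P2), 1 (knockout) and 5 (rods) with averaged logs. Without the highest cells the clock counts were 1 (knockout) and 6 (rods). The causes were not tested. Counting the repeated library as 2 cells was added after seeing the data. Depth limits the P2 to P60 groups, where 3 reads stand for 0.919 to 1.74 CPM, more than the 2-month groups.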
